A study of Mus musculus with 12 samples.

Results

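The interferon regulatory factors are a family of transcription factors, and 7 of their genes (Irf1, Irf2, Irf3, Irf5, Irf7, Irf8 and Irf9) were followed by symbol through all 12 libraries of an RNA sequencing study of mouse L929 cells, an established fibroblast line. Each symbol matched exactly 1 of the 54532 listed Ensembl genes. Of the 7, 6 passed the filter on low counts that left 16840 genes for testing, and Irf8 did not. The libraries carry 6 labels with 2 libraries each. Cells labelled mock received no treatment, cells labelled HT-DNA, hpRNA, G3-YSD or HSV were transfected with the agent of that name, and cells labelled cGAMP are described as stimulated with cGAMP, the messenger made by the DNA sensor cGAS. All groups were grown in the same serum-containing medium, and RNA was collected 6 hours after transfection. The labels say that the transfections were made in duplicate but not what the library numbers 1 and 2 mark, so the p-values below measure only the spread between libraries, part of which may be technical. For HSV the digit could also name a type of virus, which the labels do not settle, and HSV would then be 2 groups of 1 library.

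In the resting cell Irf3 is present as an inactive protein that the kinases TBK1 and IKKε switch on after nucleic acids are sensed, whereas Irf7 is kept low and is itself induced by interferon. IRF9 is the DNA-binding subunit of the complex ISGF3, which carries the interferon receptor's signal to genes with an interferon-stimulated response element. IRF1 is an activator induced by interferon through a gamma-activated site, IRF2 is known as its constitutive counterpart at shared sites, and IRF5 and IRF8 are best known from immune cells. From that textbook background Irf2 and Irf3 were set as constitutive members, Irf1, Irf7 and Irf9 as interferon-inducible ones, and Irf5 and Irf8 as mainly immune-cell genes.

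The promoters of Irf7, the member with the widest range, and of the Irf1 and Irf2 pair are shown to place the known interferon motifs beside the levels that follow. The stretches are RefSeq windows on the GRCm38.p6 assembly, printed 5′ to 3′ on the gene's strand up to the annotated gene start. Capitals mark a match to the core of the interferon-stimulated response element (GAAA, any 2 bases, GAAA) or to the gamma-activated site TTCNNNGAA. Irf1 is at chr11:53769764-53770013 on the plus strand, Irf2 at chr8:46739495-46739731 on the plus strand and Irf7 at chr7:141266482-141266674 on the minus strand.
Irf1: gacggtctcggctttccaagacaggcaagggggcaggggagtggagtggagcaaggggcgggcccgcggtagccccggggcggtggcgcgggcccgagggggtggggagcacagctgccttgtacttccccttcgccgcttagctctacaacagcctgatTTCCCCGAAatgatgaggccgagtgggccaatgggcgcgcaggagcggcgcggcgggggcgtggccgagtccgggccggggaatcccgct
Irf2: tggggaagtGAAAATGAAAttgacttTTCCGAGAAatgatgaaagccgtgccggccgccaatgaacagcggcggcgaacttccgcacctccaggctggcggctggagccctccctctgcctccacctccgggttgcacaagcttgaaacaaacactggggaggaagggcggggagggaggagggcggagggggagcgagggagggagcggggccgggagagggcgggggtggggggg
Irf7: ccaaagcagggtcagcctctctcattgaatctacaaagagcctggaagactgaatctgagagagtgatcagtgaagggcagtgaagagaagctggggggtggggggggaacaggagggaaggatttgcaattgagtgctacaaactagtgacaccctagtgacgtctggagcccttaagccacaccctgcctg
The Irf1 stretch held TTCCCCGAA, 90 bases before the RefSeq start. In Irf2, GAAAATGAAA lay 241 and TTCCGAGAA 224 bases before that start, and GGGGATTTCC at 17 bases ran past the printed stretch. The printed stretch of Irf7 held neither motif, a TATAAA 29 bases before its RefSeq start lay past it, and the windows of Irf3, Irf5 and Irf9 held no match to these 2 motifs, to an NF-kB type site (GGG, any 2 bases, TTTCC) or to TATAAA. The Irf8 window held TTCTCGGAA and TTCAGAGAA, 171 and 153 bases before its RefSeq start, and TATAAA at 31 bases. Both strands were searched. Of 32851 mouse promoter windows of this length, 3.44% held the response element core, 8.3% TTCNNNGAA, 1.63% the NF-kB type site and 13.6% TATAAA. A match is a string of letters in the window, and a missing match says nothing of what binds outside it.

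By their counts the libraries did not group as labelled, which bears on every value below. Total counts ranged from 12650790 to 18912400 per library. Library pairs were compared by the median squared difference in counts over that from counting noise, where 1 is counting noise alone. Each library was nearest to a library of another label with the same number (mock with hpRNA, HT-DNA with cGAMP, G3-YSD with HSV), at ratios of 1.41 to 2.03, while the 2 libraries of one label differed at 3.52 to 82.6. Libraries G3-YSD 2 and HSV 2 had the lowest totals and the highest share of mitochondrial counts, 3.64% and 3.53% against 2.03% to 2.52% elsewhere. The wording of the cell source is shared by mock, HT-DNA and hpRNA and differs for cGAMP, G3-YSD and HSV, so a batch that follows it cannot be told apart from treatment in comparisons of the last 3 with mock. Groups are therefore named by their labels, no library was moved, and levels are given for each library as CPM, counts scaled to the library total and by TMM.

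Irf3 (chromosome 7, 44997648 to 45002848, GRCm38), the constitutive factor that TBK1 switches on, was the steadiest member. It stood at 42.1 and 41.3 CPM in mock 1 and 2, 43.3 and 40.2 CPM under HT-DNA, 38.2 and 43.7 CPM under hpRNA and 42.1 and 40.5 CPM under cGAMP. The G3-YSD libraries had 48.6 and 27.1 CPM and the HSV libraries 42.2 and 27.3 CPM. Among the 8 libraries of these first 4 labels its highest level was 1.14 times its lowest, and over all 12 the ratio was 1.79. Only G3-YSD 2 and HSV 2, the libraries with the low totals and high mitochondrial share, lay apart, below the other 10. The part of those library properties in the lower Irf3 level was not tested.

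Irf2 (chromosome 8, 46739732 to 46847458), the other constitutive member and the counterpart of IRF1 at shared sites, did not hold steady across the libraries. Its levels were 28.0 and 39.1 CPM under mock, 28.1 and 56.2 CPM under HT-DNA, 29.8 and 39.6 CPM under hpRNA and 29.6 and 64.7 CPM under cGAMP. In G3-YSD 1 and HSV 1 Irf2 reached 120 and 127 CPM, and the second library of either label had 28.1 and 28.6 CPM. The lowest 6 libraries thus lay close together, and the highest level was 4.53 times the lowest.

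Irf1 (chromosome 11, 53770014 to 53778374), the interferon-inducible activator, ranged from 13.5 CPM in hpRNA 1 to 358 CPM in G3-YSD 1, a ratio of 26.6. Mock 1 and 2 had 14.2 and 60.6 CPM and hpRNA 1 and 2 had 13.5 and 57.8 CPM. HT-DNA 1 and 2 had 31.0 and 146 CPM, and cGAMP 1 and 2 had 38.1 and 144 CPM. The highest levels were in G3-YSD 1 and HSV 1, at 358 and 339 CPM, with 34.4 and 34.9 CPM in G3-YSD 2 and HSV 2. Library 2 was the higher one under mock, HT-DNA, hpRNA and cGAMP, and the lower one under G3-YSD and HSV.

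Irf7 (chromosome 7, 141262706 to 141266481, minus strand), the inducible amplifier of interferon alpha production, had the widest range of the family, from 28 counts (2.31 CPM) in HSV 2 to 4060 counts in G3-YSD 1, with its highest level of 248 CPM in HSV 1. Under mock it stood at 3.07 and 84.6 CPM, and under hpRNA at 2.68 and 83.6 CPM. HT-DNA had 30.7 and 125 CPM and cGAMP 37.1 and 129 CPM. G3-YSD had 240 and 3.08 CPM and HSV 248 and 2.31 CPM. The highest level was 107 times the lowest, and the 4 low libraries (mock 1, hpRNA 1, G3-YSD 2 and HSV 2) were all at or under 3.08 CPM.

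Irf9 (chromosome 14, 55603571 to 55610030), the DNA-binding subunit of ISGF3, was low in those same 4 libraries and varied less among the others. It had 12.8 and 106 CPM under mock, 78.5 and 124 CPM under HT-DNA, 12.2 and 102 CPM under hpRNA and 81.3 and 128 CPM under cGAMP. Levels were 180 and 14.9 CPM under G3-YSD and 176 and 13.2 CPM under HSV, and the highest was 14.9 times the lowest.

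**Figure D1:**
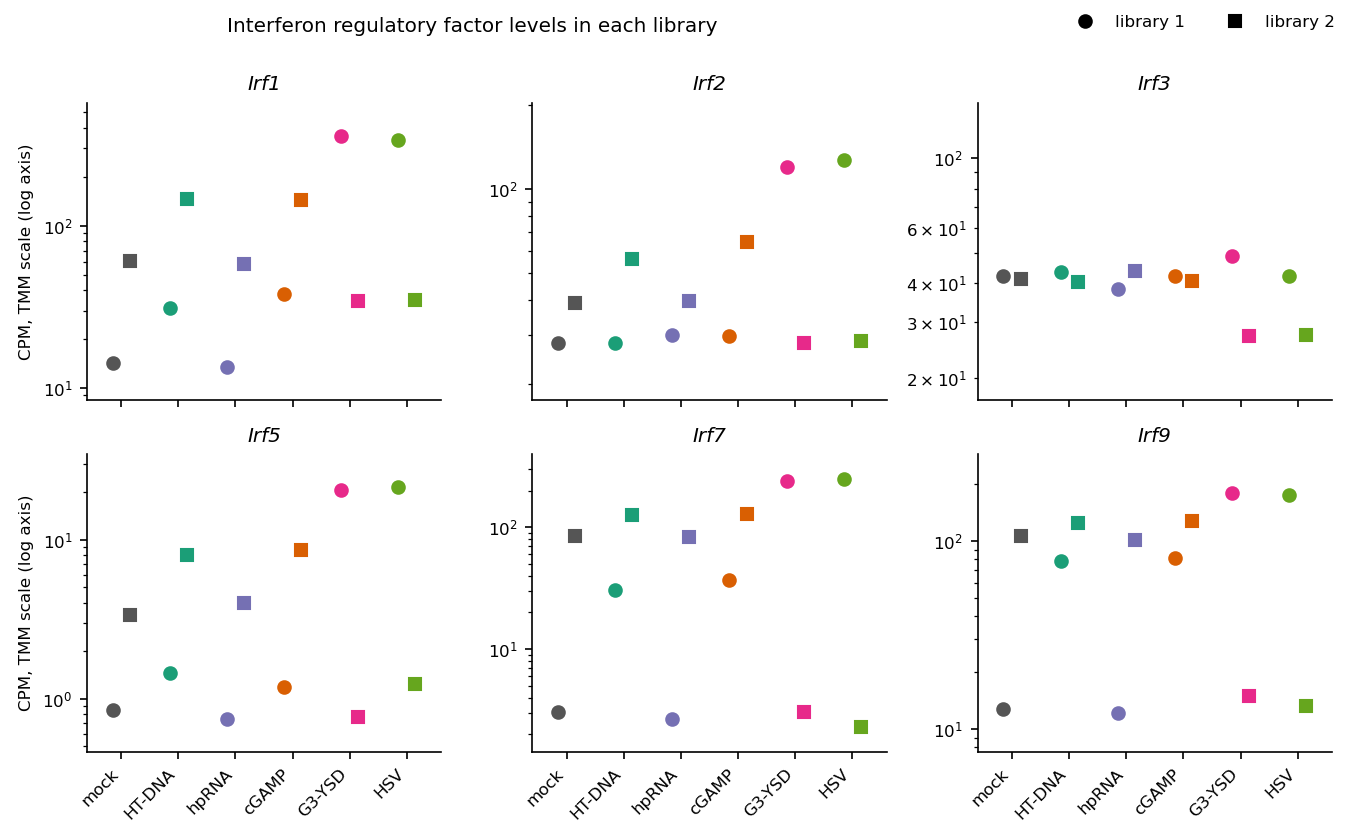
Level of each tested member in each of the 12 libraries, in CPM on the TMM scale, with 1 panel per gene, a log axis of its own in each panel, and circles for library 1 and squares for library 2 of a label. Irf3 stays between 27.1 and 48.6 CPM, while Irf7 runs from 2.31 to 248 CPM and the squares lie above the circles under mock, HT-DNA, hpRNA and cGAMP but below them under G3-YSD and HSV for Irf1, Irf2, Irf5, Irf7 and Irf9.

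Irf5 (chromosome 6, 29526625 to 29541871), a factor of Toll-like receptor signalling in myeloid cells, was detected at a low level in every library. It had 15 and 55 counts in mock (0.853 and 3.36 CPM), 28 and 131 in HT-DNA, 13 and 71 in hpRNA and 22 and 132 in cGAMP. In G3-YSD it had 346 and 10 counts (20.4 and 0.769 CPM) and in HSV 351 and 15. The order of the libraries was close to that of Irf1 and Irf7, with G3-YSD 1 and HSV 1 highest. Irf8 (chromosome 8, 120736358 to 120756694), a factor of monocyte and dendritic cell development, had 1 to 4 counts in every library, too few for any comparison at this depth.

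The labelled cell type was checked by marker genes. Of 12 fibroblast markers Dcn was at 0 in all libraries and 8 were above 3 counts in each. Thy1 had 1 to 8 counts, Lum had at most 1, and Fap had 0 in hpRNA 1. The summed level of the 12 ran from 2619 CPM in HSV 1 to 4216 CPM in G3-YSD 2, mostly from Vim, at 1822 and 2758 CPM there. The summed level of 10 macrophage and monocyte markers lay between 84.7 CPM in G3-YSD 1 and 110 CPM in cGAMP 1, mostly from Cd68. Within that list Fcgr1 was at 3.80 to 5.31 CPM in the G3-YSD and HSV libraries and at 0.112 to 1.30 CPM in the other 8, while Csf1r had at most 2.48 CPM in any library. Of 5 B cell markers, Ms4a1 and Cd79b had at most 8 counts in any library and Cd79a had 8 to 19. Pax5, another gene of that list, was at 9.44 and 31.9 CPM under mock, 51.7 and 3.85 CPM under G3-YSD and 53.8 and 4.62 CPM under HSV, and so was high and low in the same libraries as Irf7. The 4 endothelial markers summed to 5.998 to 11.8 CPM in the G3-YSD and HSV libraries and to 0.549 to 1.11 CPM in the other 8, with Kdr at 10.5 and 8.15 CPM in G3-YSD 1 and HSV 1. Dendritic cell markers (5 genes, Siglech at 0 throughout) summed to 1.57 to 2.54 CPM in those 4 libraries and 0.488 to 0.913 CPM in the other 8. For 5 T cell markers the sums were 1.57 to 3.80 and 0.833 to 1.41 CPM, and for 4 epithelial markers 1.47 to 4.54 and 0.244 to 0.682 CPM. The part of these genes' cell types in the members' levels was not tested. In bulk RNA a change in the number of cells that make a transcript and a change in the amount per cell cannot be told apart.

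The constitutive and inducible members were set against the range of all genes. Among the 10480 tested genes with a mean of at least 5 CPM, the median ratio of the highest to the lowest library was 1.88. For Irf3 55.6% of these genes had a larger ratio, and for Irf2 9.19%. The corresponding shares were 2.29% for Irf9, 1.72% for Irf1, 1.66% for Irf5 and 1.15% for Irf7. Irf5 reached a mean of 5 CPM only through G3-YSD 1 and HSV 1, at 20.4 and 21.5 CPM. Its median was 2.41 CPM and its lowest level 0.742 CPM, so its share is less secure than the others. Irf2 thus lay between Irf3 and the 3 inducible members, which is a description of these libraries with no test.

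The makeup of the family, on a scale of CPM per kilobase of annotated exon that allows levels of different genes to be compared, turned with these levels. The sum over the 7 members ran from 21.8 CPM per kb in hpRNA 1 to 225 CPM per kb in G3-YSD 1. Irf3 was the highest member in mock 1 and hpRNA 1, with 52.9% and 51.0% of the sum. Irf7 was highest in mock 2 and hpRNA 2, with 29.6% and 29.5%, and Irf9 in HT-DNA 1 and cGAMP 1, with 30.8% and 29.5%. In the other 6 libraries Irf1 was the highest, with 30.8% to 40.1%. Irf3 made up 6.29% and 5.56% of the sum in G3-YSD 1 and HSV 1, where its own level of 48.6 and 42.2 CPM was no lower than in mock.

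**Figure D2:**
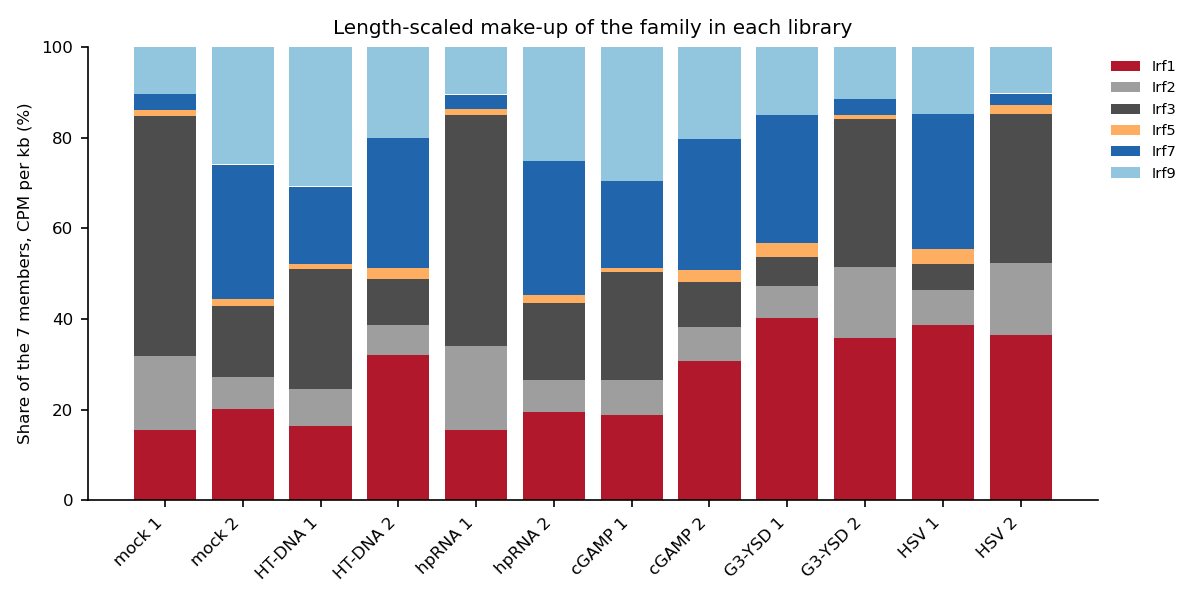
Share of each member in the summed level of the 7 members in each library, in percent of CPM per kilobase of annotated exon, with 1 bar per library (Irf8, at most 0.194%, is too small to see). Irf3 takes 52.9% in mock 1 and 6.29% in G3-YSD 1, and Irf1 takes 35.7% and 36.4% in G3-YSD 2 and HSV 2, where Irf7 takes only 3.37% and 2.54%.

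For each of the 6 tested members the largest difference between libraries of one label was larger than any between same-numbered libraries of nearest labels. For Irf3 the largest ratio within a label was 1.79 in either direction, in G3-YSD. In mock, Irf7 was 27.6-fold higher in library 2 than in library 1, with an exact 95% interval for counting error of 21 to 36.9. Irf9 was 8.27-fold (7.19 to 9.54), Irf1 4.26-fold (3.71 to 4.92) and Irf2 1.40-fold (1.24 to 1.57) higher in mock 2, while Irf3 was at 0.982 (0.883 to 1.09). Under G3-YSD the ratio turned over, with Irf7 at 0.0128 (0.00915 to 0.0175), Irf1 at 0.0959 (0.0870 to 0.106) and Irf3 at 0.559 (0.492 to 0.634). Between mock and hpRNA, HT-DNA and cGAMP, or G3-YSD and HSV of the same number, the largest ratio in either direction was 1.13 for Irf9, 1.15 for Irf2 and Irf3, 1.23 for Irf1 and 1.33 for Irf7. For Irf5 it was 1.61, from 15 and 10 counts. Intervals cover counting error only, since reads without molecular identifiers are not independent molecules.

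**Figure D3:**
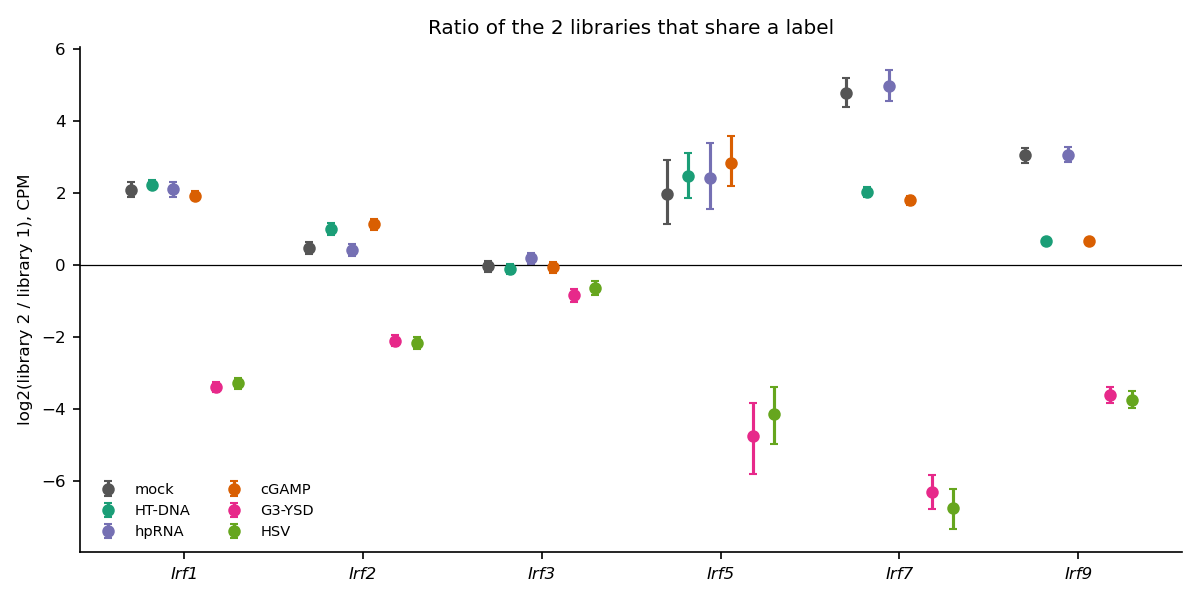
Log2 ratio of library 2 over library 1 of each label for the 6 tested members, with bars for the exact 95% interval of the 2 counts (counting error only). Irf3 lies near 0 under mock, HT-DNA, hpRNA and cGAMP, and the other members lie above 0 under these labels and below 0 under G3-YSD and HSV, down to -6.74 for Irf7 in HSV.

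The libraries labelled HT-DNA and cGAMP were compared with mock to ask what cytosolic DNA and its messenger change in the family. Without a block on the library number neither comparison gave a call: of the 6 tested members 0 passed an adjusted p of 0.05 in edgeR's quasi-likelihood test, where percent called over all genes was 0 in each. DESeq2 also called 0 members, against 0.00296% of its genes for HT-DNA and 0% for cGAMP. At an unadjusted p under 0.05 edgeR had 0 members and 0.368% and 0.588% of all genes. For HT-DNA the log2 fold changes were 1.24 with a standard error of 1.47 for Irf1, 0.83 with 2.36 for Irf7, 0.77 with 1.53 for Irf9, 1.17 with 1.78 for Irf5 and 0.33 for Irf2, and Irf3 was near 0 with a standard error of 0.28. For cGAMP they were 1.29 for Irf1, 0.92 for Irf7, 0.82 for Irf9, 1.21 for Irf5, 0.49 for Irf2 and -0.01 for Irf3. The members' median was 0.80 for HT-DNA and 0.87 for cGAMP, against -0.001 and 0 over all genes. With standard errors of this size, a p above the threshold does not show that levels did not differ. Without library 2 of the stimulus, the value of Irf7 was -0.52 for HT-DNA and -0.25 for cGAMP, without mock 1 it was -0.11 and -0.033, and without mock 2 it was 4.68 and 4.76, so leaving out either of the first 2 turned its sign. With the number as a replicate block in 8 libraries, leaving out G3-YSD and HSV, Irf1 was called, at 1.21 with a standard error of 0.0881 for HT-DNA and 1.335 with 0.0883 for cGAMP (edgeR adjusted p = 0.00694 and 0.00474, percent called 0.0963 and 0.158 of all genes tested there). It was the only member called in that fit.

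Set beside the mock library of the same number, the DNA and cGAMP libraries gave a like ratio for Irf1 at both starting levels. HT-DNA over mock was 2.18 (1.88 to 2.54) for libraries 1 and 2.41 (2.24 to 2.599) for libraries 2, and cGAMP over mock was 2.68 (2.32 to 3.11) and 2.38 (2.21 to 2.57). For Irf7 the HT-DNA ratio was 10.0 (7.56 to 13.5) for libraries 1 and 1.48 (1.38 to 1.58) for libraries 2, and for Irf9 it was 6.14 (5.34 to 7.10) and 1.17 (1.10 to 1.25). The cGAMP ratios were 12.1 and 1.52 for Irf7 and 6.36 and 1.21 for Irf9. Irf2 went the other way, at 1.00 and 1.44 for HT-DNA and 1.06 and 1.66 for cGAMP, and Irf3 lay between 0.974 and 1.03 in all 4 ratios. These intervals hold counting error only, the comparisons share the mock libraries, and the meaning of a shared number is unknown.

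In hpRNA against mock no member differed beyond the spread. The log2 fold changes lay between -0.07 for Irf1 and 0.17 for Irf5, with a members' median of -0.02 against 0 over all genes. Of 6 tested members 0 were called by edgeR, where percent called was 0, and by DESeq2, where it was 0.00296. At an unadjusted p under 0.05 edgeR had 0 members and 0.344% of all genes. Set beside the mock library of the same number, Irf1 was at 0.948 and 0.954 times the mock level, Irf7 at 0.874 and 0.989 times and Irf9 at 0.950 and 0.962 times.

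For G3-YSD and HSV libraries 1 held the highest levels of the series for Irf1, Irf2, Irf5, Irf7 and Irf9, and libraries 2 lay below mock 2 for these 5 and for Irf3. The log2 fold changes against mock were 2.39 with a standard error of 1.53 for Irf1 in G3-YSD (edgeR adjusted p = 0.353) and 2.32 with 1.52 in HSV (edgeR adjusted p = 0.366). Irf5 had 2.34 and 2.44, Irf7 1.47 and 1.51, Irf2 1.14 and 1.21, Irf9 0.72 and 0.67, and Irf3 -0.14 and -0.26. The smallest edgeR adjusted p of the other members was 0.384, for Irf2 in HSV. Of 6 tested members 0 were called in either comparison, where edgeR's percent called was 5.16 and 5.2. DESeq2 called 0 members, against 13.7% and 13.3% of its genes. At an unadjusted p under 0.05 edgeR had 0 members, against 24.2% and 24.3% of all genes. The members' median log2 fold change was 1.31 and 1.36, against 0.11 over all genes in both. Without library 1 of the stimulus, Irf1 was at -0.13 in G3-YSD and -0.11 in HSV, and Irf7 at -3.84 and -4.25. The 869 and 876 genes called in all became 0 without mock 1 or without mock 2. Without G3-YSD 2 the first count was 77, and without HSV 2 the second was 130.

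**Figure D4:**
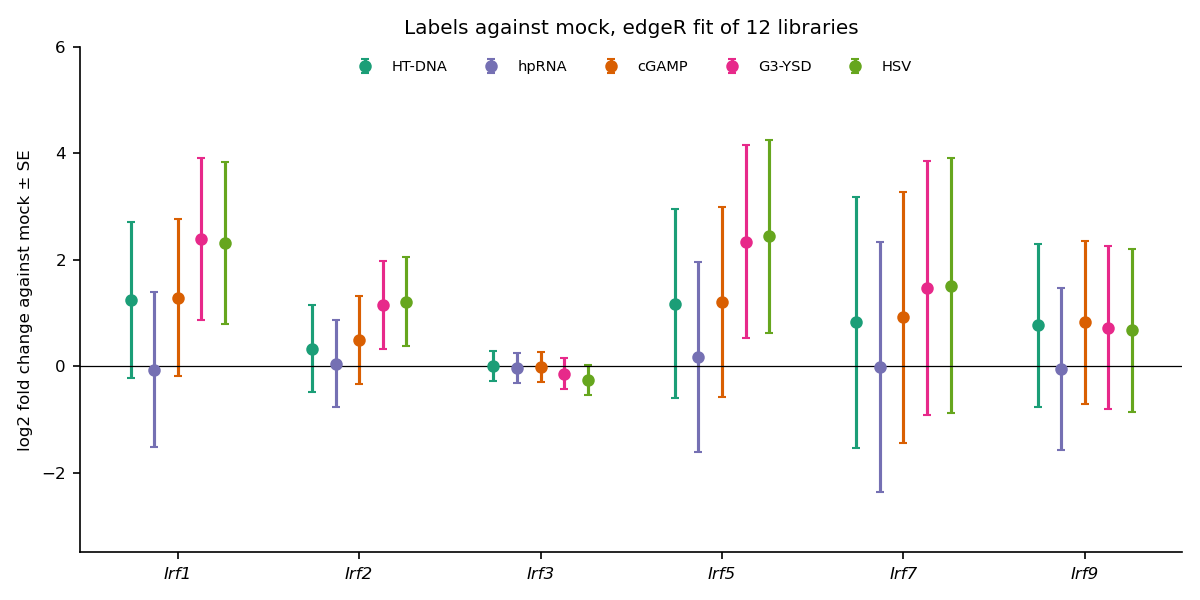
Log2 fold change of each label against mock with its standard error (bars), from the edgeR fit of all 12 libraries, for the 6 tested members. The largest values are those of Irf1 and Irf5 in G3-YSD and HSV, at 2.32 to 2.44, with standard errors from 1.52 to 1.82, and Irf3 stays between -0.26 and 0.0031.

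For each of the 6 tested members, the 2 libraries of any label overlapped in level with those of every other label, in all 15 pairs of labels, so the labels cannot be put in an order of level beyond their spread. None of the 6 had its 2 libraries above or below both mock libraries, while 47% of tested genes did for G3-YSD, 47.5% for HSV, 27.8% for HT-DNA, 30% for cGAMP and 20.8% for hpRNA. In the test of any difference among the 6 labels, percent called was 5.41 over all genes, and 0 of 6 members were called, with edgeR adjusted p from 0.826 for Irf1 to 1 for Irf3, Irf7 and Irf9.

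Irf1 parted from the other inducible members in G3-YSD 2 and HSV 2. Its 34.4 and 34.9 CPM there were 2.42 (2.07 to 2.84) and 2.46 (2.10 to 2.89) times the level in mock 1. Irf7 was at 1.00 (0.649 to 1.54) and 0.753 (0.459 to 1.21) times mock 1 and Irf9 at 1.17 (0.958 to 1.42) and 1.03 (0.838 to 1.27) times. Irf2 was at 1.00 and 1.02 times, and Irf3 at 0.645 and 0.650 times. At the upper end, G3-YSD 1 over mock 2 was 5.92 for Irf1, 6.09 for Irf5, 3.07 for Irf2, 2.83 for Irf7, 1.71 for Irf9 and 1.18 for Irf3. Mock 1 was chosen for this ratio after the values were seen, as the mock library with the same low Irf7 level, and the intervals cover counting error only.

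**Figure D5:**
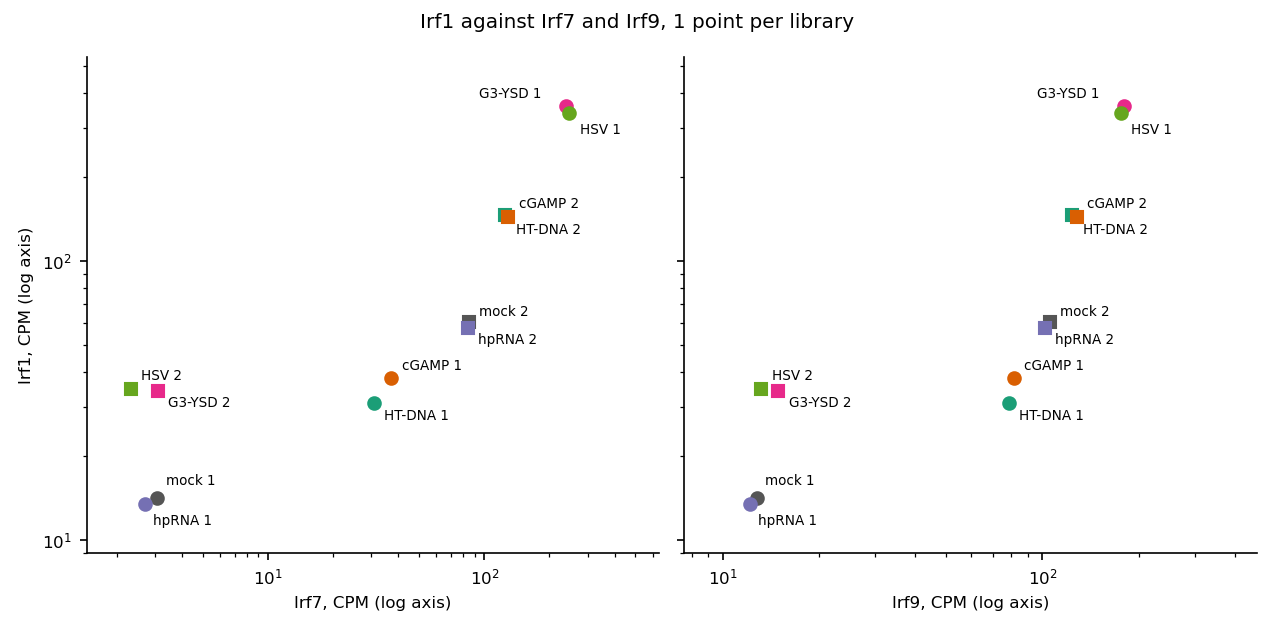
Irf1 against Irf7 (left) and Irf9 (right) with 1 point per library, all in CPM on log axes, circles for library 1 and squares for library 2. G3-YSD 2 and HSV 2 share the low Irf7 and Irf9 levels of mock 1 and hpRNA 1 but stand at 34.4 and 34.9 CPM of Irf1 against 14.2 and 13.5 CPM.

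Interferon beta, a gene that IRF3 and IRF7 activate, was not ordered over the libraries as Irf7 was. Ifnb1 had 56 and 50 counts (4.31 and 4.13 CPM) in G3-YSD 2 and HSV 2, where Irf7 was at 3.08 and 2.31 CPM, and 30 counts (1.83 CPM) in mock 2, where Irf7 was at 84.6 CPM. Mock 1 and hpRNA 1, equally low in Irf7, had 0 counts of Ifnb1, which allows up to 0.171 CPM in each. Its log2 fold change was 4.08 with a standard error of 2.19 in G3-YSD (edgeR adjusted p = 0.284). Of 9 interferon genes under IRF control 6 were tested, and 1, Ifna13, passed in G3-YSD and HSV, where 5.16% and 5.2% of all genes did, with 51 and 8 counts and 58 and 14 counts against 0 in both mock libraries (edgeR adjusted p = 0.0428 and 0.0365). With 0 counts in mock, Ifna13 passed the filter on low counts through labels where it is high, so the call adds no independent support. Without mock 1, or without mock 2, edgeR called 0 of all genes in G3-YSD and in HSV. Ifna13 reads may be shared with near-identical interferon alpha genes.

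Of 23 sensors, adaptors and kinases that activate the family, edgeR called 2 in G3-YSD and in HSV, both lower, and 0 in the other 3 comparisons. Percent called over all genes was 5.16 and 5.2, and at such shares a list this short can give 2 calls. Most calls over all genes in this fit were also lower, 567 of 869 in G3-YSD and 585 of 876 in HSV. Ticam1, the adaptor of Toll-like receptor 3, fell by 1.53 on the log2 scale in G3-YSD (edgeR adjusted p = 0.0473), from 40.6 and 48.2 CPM under mock to 19.7 and 10.9 CPM. Tbkbp1, an adaptor of TBK1, fell by 1.53 (edgeR adjusted p = 0.0234), from 58.8 and 64.3 CPM to 16.4 and 26.1 CPM. In HSV the 2 genes fell by 1.61 and 1.45. The kinases had smaller values: Tbk1 had 57.3 and 61.1 CPM under mock and 94.4 and 41.9 CPM under G3-YSD, and Ikbke had a log2 fold change of -0.62 in G3-YSD (edgeR adjusted p = 0.12) and -0.68 in HSV. Tmem173, which encodes the cGAMP receptor STING, had -0.39 and -0.44. Without mock 1, or without mock 2, edgeR called 0 of all genes in both comparisons, these among them.

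On the receptor side 0 of 12 genes were called in any of the 5 comparisons, where percent called over all genes was at most 5.2. Stat2, a partner of IRF9, was high and low in the same libraries as Irf9, with 25.6 and 228 CPM under mock and 540 and 25.6 CPM under G3-YSD. Among 16 inhibitors 1 was called, near the 5.16% and 5.2% of all genes in these comparisons. It was Pdlim2, a regulator of STAT and NF-kB turnover, which fell by 0.74 in both G3-YSD and HSV (edgeR adjusted p = 0.0495 and 0.0497). The 10 tested of 11 other family and partner genes gave 0 calls, beside the same shares of all genes. At such shares a list this short can give 0 calls without differing from other genes. That list holds the family member Irf4, with at most 6 counts in any library.

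Of 26 targets of ISGF3 and the IRFs, 25 had a positive log2 fold change in HT-DNA and in cGAMP, 4 in hpRNA and 26 in G3-YSD and in HSV, with medians of 0.65, 0.79, -0.16, 2.20 and 2.21 in that order of labels (HT-DNA, cGAMP, hpRNA, G3-YSD and HSV). Over all genes the medians were -0.001, 0, 0, 0.107 and 0.105 in that order. edgeR called 0 of the 26 in each comparison, where percent called over all genes was 5.16 in G3-YSD, 5.2 in HSV and 0 in the rest. Ifit1, an antiviral protein gene of that list, had 2.10 and 486 CPM under mock and 1805 and 65.7 CPM under G3-YSD. Its log2 fold change in G3-YSD was 1.94 with a standard error of 2.625. Genes that vary together give no independent signs, so counts of positive values are a description only. Of 18 targets of IRF1 in antigen presentation and GTPase defence, 18 were positive in HT-DNA, 17 in cGAMP, 6 in hpRNA and 18 in G3-YSD and in HSV. Their median in G3-YSD was 1.40 against 0.107 over all genes, and edgeR called 0 of them in each comparison. Gbp2, a guanylate-binding protein of that list, had 3 and 167 counts in mock and 3696 and 20 counts in G3-YSD, with a log2 fold change of 4.41 and a standard error of 2.99.

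The genes with the pattern most like each member were sought over the 12 libraries by Pearson's r of log2 CPM. The search covered 9766 genes with a mean of at least 5 CPM. Single libraries could lie under that mean, as for Gbp2b, Gbp2 and Gbp4, whose lowest levels were 0.34, 0.17 and 0 CPM. Among the 3 most alike were Gbp2b and Gbp2 for Irf1 (r = 0.996 and 0.994), Oas1a and Irgm1 for Irf7 (0.997 and 0.996), Irgm1 and Oas1a for Irf9 (0.992 and 0.991) and Gbp4 and Ube2l6 for Irf5 (0.991 and 0.989). Next came Rrbp1 for Irf1, Lgals3bp for Irf7 and Cd274 for Irf5. For Irf2 they were Casp12, Setdb2 and Junb (0.991 to 0.990), and for Irf3 Arfgap2, Zswim8 and D16Ertd472e (0.983 to 0.977). Between 200 genes for Irf9 and 724 for Irf3 had an r over 0.9. The points share libraries and depth and fall into sets of like libraries, so r is given as a description only.

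Reads of overlapping genes limit some members, since the strand setting of the counting is not given in the sources used here. Rnf31 lies on the strand of Irf9, shares 123 exon bases with it and ran from 13.2 to 63.0 CPM. It rose and fell with Irf9, at 16.7 and 40.4 CPM under mock and 61.2 and 13.2 CPM under G3-YSD. The part of shared reads in the Irf9 level was not tested. Tnpo3 shares 411 exon bases with Irf5 on the opposite strand and held between 155 and 192 CPM, a ratio of 1.24, while Irf5 ran over 29.0-fold. Phrf1 and Irf7 share 45 exon bases, and Phrf1 ranged from 99.2 to 138 CPM. Bcl2l12 shares 88 with Irf3 and had at most 8.69 CPM, and Gm17334 shares 135 with Irf1 and had at most 1.43 CPM.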

How the data were processed

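Transcripts of polyA-selected RNA from 12 libraries were read in pairs of 150 bases, per the labels' protocols. The authors deposited 1 file of raw read counts by Ensembl ID for each library. Per the submitters' processing notes HISAT2, HTSeq and mm10 were used. Versions, strand setting and annotation release are not stated there. Of 54532 listed IDs, 54495 matched GENCODE M21 (GRCm38), which gave symbols, positions and exon lengths, and promoter windows came from RefSeq (GRCm38.p6).

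Tests used edgeR 4.0.16 under R 4.3.3 (filterByExpr, TMM, quasi-likelihood test, 1 term per label, all 12 libraries, 6 residual degrees of freedom, biological coefficient of variation 0.397), with calls at 0.05 after Benjamini-Hochberg adjustment over 16840 genes. DESeq2 1.42.0 and other scalings, filters, samples and blocks were alternatives. A run of the test on counts simulated for HT-DNA against mock required recovery only of larger folds at a spread set low. Recovery at the real spread is not reported here, so that run says nothing of comparisons without a call. Intervals of count ratios are exact binomial at 95%, and a count of 0 allows 3 counts. The members and lists were chosen with earlier results of these data known. Named were all members, up to 4 called genes per list by adjusted p with 8 genes given regardless, and the 3 genes most like each member. Some genes named by this rule are not reported here.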

Additional observations from a re-analysis of the deposited data

How the results depend on the processing

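The members gave 0 calls under every scaling, filter, tool and left-out library tried, and 1 call, of Irf1, in some fits with a block. The numbers do not pair the libraries across all labels in 1 way: deviations of same-numbered libraries correlated at 0.365 to 0.654 among mock, HT-DNA, hpRNA and cGAMP, at 0.939 between G3-YSD and HSV, and at -0.357 to -0.311 between these sets. With the replicate number as a block in all 12 libraries, the counts were 1211 for G3-YSD, 1214 for HSV and 0 for the other 3, with 0 members. With the replicate block in the 4 libraries compared alone they were 6 for HT-DNA and 6 for cGAMP, each with 1 member, Irf1 (edgeR adjusted p = 0.0463 and 0.0211), 182 for hpRNA, and 0 for G3-YSD and HSV. With the block in 8 libraries, leaving out G3-YSD and HSV, they were 14 and 23 for HT-DNA and cGAMP, again with 1 member each, Irf1 (edgeR adjusted p = 0.00694 and 0.00474). A crossed pairing, chosen after seeing the data, called 984 genes for G3-YSD and 999 for HSV, each with 1 member. That pairing was set from these same values, so its calls add no independent support. The share of all genes called in the fits of 4 libraries is not given here. Without a block, the 4 libraries alone gave 0 genes for G3-YSD and for HSV. Dropping the filter on low counts gave 1894 and 1892 genes (1160 and 1150 of them higher, against 302 and 291 of 869 and 876) and 3046 for any label. Upper quartile scaling called 364 higher and 314 lower for G3-YSD and 347 and 304 for HSV. DESeq2 called 1 gene for HT-DNA, 1 for hpRNA, 2106 for G3-YSD, 2138 for HSV and 2882 for any label. Leaving out 1 library gave 0 to 652 genes for G3-YSD, 0 to 682 for HSV and 124 to 757 for any label, and 0 members. Irf3 in HT-DNA turned from 0.0031 to -7.8e-05 under upper quartile scaling and to -0.00029 with the block. The range of the log2 fold change over left-out libraries crossed 0 for each tested member and label except Irf1 in cGAMP (0.022 to 2.685). For HT-DNA it was -0.27 to 2.66 for Irf1, -0.26 to 0.76 for Irf2, -0.034 to 0.054 for Irf3, -0.53 to 2.48 for Irf5, -0.52 to 4.68 for Irf7 and -0.057 to 2.999 for Irf9. For hpRNA it was -1.48 to 1.33 for Irf1, -0.17 to 0.32 for Irf2, -0.13 to 0.072 for Irf3, -1.50 to 1.47 for Irf5, -4.03 to 3.82 for Irf7 and -2.29 to 2.16 for Irf9. For cGAMP it was -0.18 to 0.95 for Irf2, -0.042 to 0.012 for Irf3, -0.82 to 2.505 for Irf5, -0.25 to 4.76 for Irf7 and -0.017 to 3.04 for Irf9. For G3-YSD it was -0.13 to 3.78 for Irf1, -0.26 to 1.82 for Irf2, -0.63 to 0.21 for Irf3, -1.45 to 3.62 for Irf5, -3.84 to 5.29 for Irf7 and -1.999 to 2.92 for Irf9. For HSV it was -0.11 to 3.72 for Irf1, -0.24 to 1.91 for Irf2, -0.62 to 0.006 for Irf3, -0.77 to 3.74 for Irf5, -4.25 to 5.35 for Irf7 and -2.18 to 2.89 for Irf9. The cause of these differences was not tested. Depth limits Irf5, with 10 to 15 counts in its lowest libraries, and Irf8.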
